A study of Mus musculus with 6 samples.

Results

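The mouse genes Zfp900 to Zfp999 are mostly Krüppel-type zinc finger genes, and their messenger RNA was followed here in pluripotent cells with and without the microRNA miR-34a. Members were every row of the count table whose GENCODE M21 symbol is Zfp900 to Zfp999 and whose gene type is protein_coding, which gave 63 of 41388 gene rows. No measured value entered this rule, although the family was chosen with earlier results of these data known. Poly(A) RNA was sequenced from induced pluripotent stem cells (iPSCs, somatic cells returned to pluripotency), 3 libraries of miR-34a-/- lines and 3 of wild-type lines, strain C57BL/6. All 6 lines carry retroviral Oct4, Sox2 and Klf4, came from fibroblasts of littermate embryos at embryonic day 13.5, and were kept on irradiated fibroblast feeders. Each line grew from a single picked colony, and the labels call the lines of a genotype independent. The knockout was tested against the wild-type with edgeR's quasi-likelihood test over all 14717 genes that passed a count filter, and calls were made below a Benjamini-Hochberg adjusted p of 0.05. Levels are CPM, gene counts scaled to a common library size, and means carry the SD over n = 3 lines. A log2 fold change is positive where the knockout was higher and is given with its SE.

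A KRAB zinc finger protein reads DNA with a row of C2H2 fingers and, through its KRAB box, recruits the corepressor TRIM28 (KAP1), which brings the histone methyltransferase SETDB1 and closes chromatin. In embryonic and pluripotent cells the best known targets are endogenous retroviruses and imprinted regions. The genes arose by repeated local duplication, so many lie in dense clusters of close copies. Translated from the longest annotated coding sequence, 59 of the 63 members had at least 3 C2H2 fingers, with a median of 11 and a maximum of 21. A KRAB-like pattern was sought in every coding transcript of a gene, and 60 members held it. That pattern was present in 0.308% of the 20785 coding genes with under 3 fingers. Zfp957 and the short model of Zfp972 had neither fingers nor the pattern, and Zfp956 had 6 fingers without the pattern. Zfp935 had the pattern in a coding transcript and no finger in its longest coding sequence.

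Clusters of at least 3 members with gaps of at most 1 Mb between neighbours were found on 5 chromosomes. Chromosome 4 (145510759 to 147848366, mm10) carried 16 members, chromosome 2 (175372436 to 178078476) carried 10, chromosome 17 (21567008 to 22867134) carried 10, chromosome 7 (42579783 to 43192109) carried 4 and chromosome 8 (69209038 to 69749970) carried 3. Promoter sequences are shown here because 8 of the 10 chromosome 4 members with a window had like promoters, while the fold change of Zfp985 stood well above the rest of those 8. RefSeq windows (GRCm38.p6) of 300 bases, from 250 before to 50 after a transcript start, matched 53 of the 63 members. Each is printed 5′ to 3′ on the gene's strand, in lower case with the letters CCAAT or its reverse complement ATTGG in capitals. The chromosome 4 windows are those of Zfp985, Zfp979, Zfp980 and Zfp987, at chr4:147553027-147553326 (+), chr4:147642459-147642758 (-), chr4:145670447-145670746 (+) and chr4:146097062-146097361 (+).
Zfp985: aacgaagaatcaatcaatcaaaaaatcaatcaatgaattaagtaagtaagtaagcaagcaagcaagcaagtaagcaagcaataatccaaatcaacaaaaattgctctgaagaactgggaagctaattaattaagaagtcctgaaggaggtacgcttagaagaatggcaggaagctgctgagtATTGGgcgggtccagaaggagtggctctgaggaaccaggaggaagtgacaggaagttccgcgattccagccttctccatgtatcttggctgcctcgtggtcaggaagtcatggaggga
Zfp979: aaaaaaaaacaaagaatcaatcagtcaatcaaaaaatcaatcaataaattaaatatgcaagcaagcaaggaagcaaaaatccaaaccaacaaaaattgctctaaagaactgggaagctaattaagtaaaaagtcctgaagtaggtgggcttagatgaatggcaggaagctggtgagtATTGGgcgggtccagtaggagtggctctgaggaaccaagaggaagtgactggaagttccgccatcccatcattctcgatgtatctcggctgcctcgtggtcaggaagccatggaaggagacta
Zfp980: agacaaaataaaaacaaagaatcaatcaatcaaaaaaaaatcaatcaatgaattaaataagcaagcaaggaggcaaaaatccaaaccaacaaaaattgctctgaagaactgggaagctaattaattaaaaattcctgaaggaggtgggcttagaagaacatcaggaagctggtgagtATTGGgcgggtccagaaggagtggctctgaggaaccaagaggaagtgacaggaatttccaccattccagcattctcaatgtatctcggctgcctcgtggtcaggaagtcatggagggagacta
Zfp987: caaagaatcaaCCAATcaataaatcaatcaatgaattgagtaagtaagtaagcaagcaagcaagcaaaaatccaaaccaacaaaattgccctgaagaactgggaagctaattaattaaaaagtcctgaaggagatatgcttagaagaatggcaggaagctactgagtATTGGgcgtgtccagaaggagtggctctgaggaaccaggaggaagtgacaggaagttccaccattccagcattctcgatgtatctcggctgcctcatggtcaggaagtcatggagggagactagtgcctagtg

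The other windows belong to the member with the largest rise, Zfp951 at chr5:104859978-104860277 (-), to the chromosome 7 neighbours Zfp975 at chr7:42692669-42692968 (-) and Zfp977 at chr7:42592496-42592795 (-), and to the member with the largest fall, Zfp946 at chr17:22423952-22424251 (+).
Zfp951: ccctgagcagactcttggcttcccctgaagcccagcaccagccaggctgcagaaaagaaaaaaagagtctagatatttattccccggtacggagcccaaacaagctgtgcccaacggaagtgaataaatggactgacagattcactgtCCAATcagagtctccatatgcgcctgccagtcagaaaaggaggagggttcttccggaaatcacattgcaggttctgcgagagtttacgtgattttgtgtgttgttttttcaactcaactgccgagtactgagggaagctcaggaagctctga
Zfp975: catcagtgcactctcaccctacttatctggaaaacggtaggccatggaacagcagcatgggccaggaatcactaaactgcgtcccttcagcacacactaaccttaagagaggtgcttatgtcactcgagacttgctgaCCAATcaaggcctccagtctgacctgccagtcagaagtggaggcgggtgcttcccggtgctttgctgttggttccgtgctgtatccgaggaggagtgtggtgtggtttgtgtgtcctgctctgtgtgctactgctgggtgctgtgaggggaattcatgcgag
Zfp977: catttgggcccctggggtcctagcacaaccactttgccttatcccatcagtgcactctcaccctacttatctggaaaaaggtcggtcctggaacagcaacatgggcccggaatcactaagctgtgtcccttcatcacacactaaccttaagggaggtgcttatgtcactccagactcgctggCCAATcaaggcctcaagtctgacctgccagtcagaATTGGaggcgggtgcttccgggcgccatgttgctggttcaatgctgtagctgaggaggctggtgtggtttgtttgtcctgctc
Zfp946: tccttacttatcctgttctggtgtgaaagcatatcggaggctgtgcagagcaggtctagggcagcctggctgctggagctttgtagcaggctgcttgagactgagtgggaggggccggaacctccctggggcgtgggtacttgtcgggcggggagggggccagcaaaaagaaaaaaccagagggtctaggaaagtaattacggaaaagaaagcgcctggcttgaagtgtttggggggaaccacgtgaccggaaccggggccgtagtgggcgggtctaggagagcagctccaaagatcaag

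The CCAAT letters, searched on both strands, stood in the windows of 40 of the 53 matched members (75.5%) and in 37.4% of all 32851 windows. CCGGAAG or CTTCCGG, the core of ETS factor sites, stood in 14 members (26.4%) against 8.86% of all windows, and GGGCGG or CCGCCC in 18 (34.0%) against 35.7%. TATAAA or TTTATA stood in 0 of the 53 members and in 13.6% of all windows. These are letter matches in fixed windows, and members of a cluster share them by common sequence. Of the 8 windows shown, that of Zfp946 was the one without CCAAT.

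Most members were weakly expressed in these cells. Of the 63, 49 passed the count filter, with a median of 2.78 CPM against 17.3 CPM over all tested genes. The median SE of the log2 fold change was 0.213 for tested members and 0.099 for all tested genes, so small differences were resolved less well here than in an average gene. The filter (about 0.564 CPM in at least 3 libraries) was met within both genotypes by 46 of the 49, including every called member, so no call rested on passing through a single genotype. All gene counts ranged from 7935323 to 27933272 per library, and members together held 0.018% to 0.023% of them.

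Of the 49 tested members, 6 rose and 5 fell in the knockout, and 38 were not called. Calls in either direction thus took 22.4% of tested members, against 50.5% of all tested genes. Over all tested genes, 26.5% were called higher and 24% lower, against 12.2% and 10.2% of the tested members. The other protein_coding Zfp genes, 302 in number with 271 tested, had 51 higher and 47 lower. The median log2 fold change was 0.02 for members, 0.01 for all tested genes and 0.00 for the other Zfp genes. A change of at least 2-fold was reached by 3 called members (6.12%), Zfp951, Zfp985 and Zfp990, against 10.3% of all tested genes, and 7.6% of all tested genes rose by as much. The genotypes did not overlap in 11 tested members (22.4%), 7 higher and 4 lower, against 56% of all tested genes. The members' transcripts were poor in GC, with a median of 38.3% against 50.7%, and fold change followed GC content over all tested genes (Spearman's rho 0.28 across 14638 genes). With library GC trends removed, 15 members were called higher and 1 lower, with a median log2 fold change of 0.33. These were 30.6% and 2.04% of tested members, against 27.1% and 20.3% of all genes tested in that fit, so the share of members called higher was then near that of all genes.

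**Figure D1:**
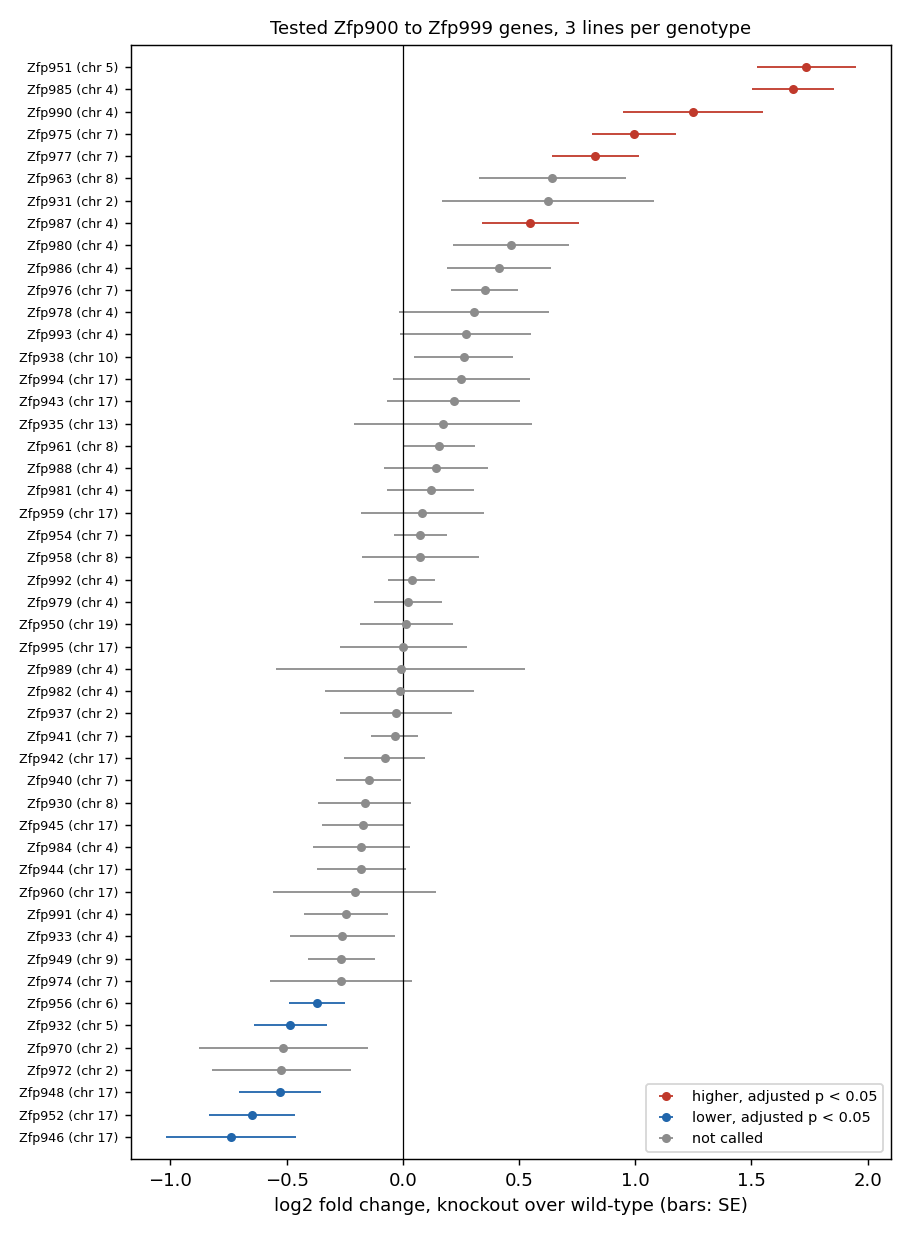
Log2 fold change (horizontal axis, bars are SE) of the 49 tested members, ordered by value, with chromosome in brackets and colour showing the call at adjusted p under 0.05. The 6 red members lie above zero, led by Zfp951 at 1.74 and Zfp985 at 1.68, and the 5 blue members lie between -0.74 and -0.37.

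The largest rise belonged to Zfp951 (ENSMUSG00000072774, chromosome 5, 104813169 to 104860070), a 10-finger KRAB-like gene outside the clusters. It stood at 4.06, 3.93 and 3.31 CPM in knockout replicates 1 to 3 and at 1.19, 1.5 and 0.902 CPM in wild-type replicates 1 to 3. All 3 knockout lines lay above all 3 wild-type lines. It rose by 1.74 on the log2 scale (SE 0.214, edgeR adjusted p = 1.7e-06), or 3.33-fold. Of the 50-base stretches of its transcripts, 98.6% occurred in no other annotated gene.

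Zfp985 (ENSMUSG00000065999, chromosome 4, 147553277 to 147585198) rose almost as much. It had 6.85, 6.83 and 9.56 CPM in the knockout lines and 2.09, 2.75 and 2.38 CPM in wild-type lines. The groups lay far apart, with knockout replicate 3 the highest library. The log2 fold change was 1.68 (SE 0.176, edgeR adjusted p = 2.1e-07), and 84.1% of its 50-base stretches were unique.

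Zfp990 (ENSMUSG00000078503, chromosome 4, 145510759 to 145539188), at the opposite end of the same cluster, reached 3.35, 4.15 and 7.48 CPM in the knockout against 2.26, 2.00 and 1.35 CPM. Groups did not overlap, and knockout replicate 3 again stood highest. It rose by 1.25 on the log2 scale (SE 0.303, edgeR adjusted p = 0.0052), and by 0.99 without knockout replicate 3 (edgeR adjusted p = 0.00055). Zfp987 (ENSMUSG00000066009), the remaining chromosome 4 member called, had 2.59, 3.11 and 3.68 CPM against 2.21, 2.50 and 1.61 CPM. Its groups were separate by a small margin, with a log2 fold change of 0.55 (SE 0.209, edgeR adjusted p = 0.035). Only 11% of its 50-base stretches were unique, and 73.4% occurred in the pseudogene Gm8935 as well. The call was lost with DESeq2 (adjusted p = 0.12), with the replicate number as a block (0.056), and without knockout replicate 2, knockout replicate 3, wild-type replicate 1 or wild-type replicate 3 (0.059 to 0.17).

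A pair of chromosome 7 neighbours rose together. Zfp975 (ENSMUSG00000069727, 42660105 to 42692742) had 4.36, 6.08 and 6.25 CPM in knockout and 2.46, 2.75 and 3.16 CPM in wild-type lines, a log2 fold change of 0.99 (SE 0.181, edgeR adjusted p = 0.00015). Zfp977 (ENSMUSG00000092335, 42579783 to 42592547) had 3.85, 3.83 and 2.94 CPM against 2.09, 1.75 and 2.19 CPM, a log2 fold change of 0.83 (SE 0.187, edgeR adjusted p = 0.0011). In both genes every knockout line lay above every wild-type line. Zfp976, which lies between them, had 7.96, 7.19 and 7.97 CPM against 6.48, 4.13 and 6.51 CPM. Its groups did not overlap either, yet its log2 fold change of 0.35 (SE 0.145) had an edgeR adjusted p of 0.05 and was not called, and it was called with GC trends removed (0.68, edgeR adjusted p = 0.00084), with the replicate number as a block (0.42, 0.013), with both (0.74, 1.1e-06) and without wild-type replicate 1 (0.45, 0.048). The windows of Zfp975 and Zfp977 shown above are 76.3% identical, and 16.1% of the 50-base stretches of Zfp975 occur in Zfp976. The fourth chromosome 7 member, Zfp936, was not tested.

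**Figure D2:**
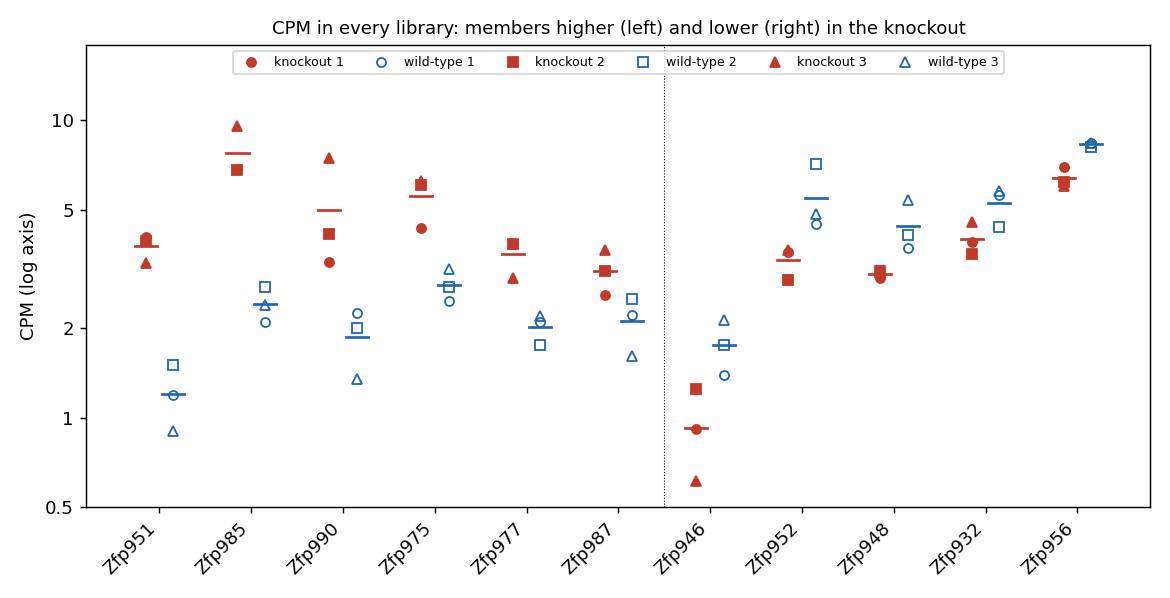
CPM (vertical log axis) of the 11 called members in each of the 6 libraries, filled symbols for knockout and open symbols for wild-type lines, with short bars at the means. Knockout lines lie above wild-type lines in the 6 members at the left, and in the members at the right only Zfp932 has groups that overlap.

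The members that fell had log2 fold changes from -0.74 to -0.37. Zfp946 (ENSMUSG00000071266, chromosome 17, 22424222 to 22456689) had 0.913, 1.25 and 0.613 CPM in knockout and 1.39, 1.75 and 2.13 CPM in wild-type lines, a log2 fold change of -0.74 (SE 0.280, edgeR adjusted p = 0.034). Zfp952 (ENSMUSG00000053390, chromosome 17, 32993129 to 33005457) had 3.60, 2.90 and 3.68 CPM against 4.47, 7.13 and 4.83 CPM, a log2 fold change of -0.65 (SE 0.184, edgeR adjusted p = 0.0064). Zfp948 (ENSMUSG00000067931, chromosome 17, 21567008 to 21588699) had 2.94, 3.11 and 3.07 CPM against 3.73, 4.13 and 5.41 CPM, a log2 fold change of -0.53 (SE 0.176, edgeR adjusted p = 0.018). All 3 lie on chromosome 17, Zfp946 and Zfp948 inside its cluster, and in each the knockout lines lay below the wild-type lines.

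Zfp932 (ENSMUSG00000066613, chromosome 5, 109996521 to 110010411), which published work describes as a repressor of endogenous retroviruses together with its close relative Gm15446, had 3.90, 3.54 and 4.54 CPM against 5.62, 4.38 and 5.80 CPM. Knockout replicate 3 overlapped wild-type replicate 2, and the log2 fold change was -0.48 (SE 0.157, edgeR adjusted p = 0.015). Gm15446, which holds 34.9% of the 50-base stretches of Zfp932, fell as well, with a log2 fold change of -0.46 (adjusted p in edgeR = 0.026), a call lost with DESeq2 (adjusted p = 0.073) with GC trends removed (0.49) and without knockout replicate 2 or wild-type replicate 2 (0.21 and 0.086), and reads of the pair may be shared. Zfp956 (ENSMUSG00000045466, chromosome 6, 47953390 to 47965300), the member of highest GC content at 54.3%, had 6.95, 6.22 and 6.01 CPM against 8.41, 8.13 and 8.38 CPM. The wild-type lines were close together and all above the knockout lines, and the log2 fold change was -0.37 (SE 0.120, edgeR adjusted p = 0.015). The 5 falls were less firm than the larger rises: with DESeq2 only Zfp952 passed, and with GC trends removed only Zfp956 did. Zfp951, Zfp985, Zfp990, Zfp975 and Zfp977 were called in each of the 16 alternatives run.

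In the chromosome 4 cluster all 16 members were tested, 3 rose, none fell, and the other 13 had log2 fold changes from -0.26 to 0.47. Among all tested genes, the shares called higher and lower were 26.5% and 24%, and 27.1% and 20.3% with GC trends removed. With GC trends removed, 9 of the 16 were called higher, adding Zfp980, Zfp986, Zfp992, Zfp981, Zfp988 and Zfp979, and the other 7 had log2 fold changes from 0.02 to 0.58. Zfp992, the most abundant member of all at 5.32 CPM per kilobase of exon, had 23.7, 21.3 and 30.04 CPM in knockout and 24.3, 22.4 and 23.5 CPM in wild-type lines. Its groups overlapped, with a log2 fold change of 0.04 (SE 0.101, edgeR adjusted p = 0.78), which became 0.37 (edgeR adjusted p = 0.0011) with GC trends removed. Zfp979, the next member beyond Zfp985, had 4.72, 5.51 and 4.91 CPM against 5.13, 5.63 and 4.51 CPM, a log2 fold change of 0.02 (SE 0.146, edgeR adjusted p = 0.92), which became 0.38 (edgeR adjusted p = 0.041) with GC trends removed. Zfp980 had 6.69, 5.87 and 11.8 CPM against 5.46, 6.38 and 4.64 CPM, with overlapping groups and a log2 fold change of 0.47 (SE 0.250, edgeR adjusted p = 0.15), or 0.80 (edgeR adjusted p = 0.0013) with GC trends removed.

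**Figure D3:**
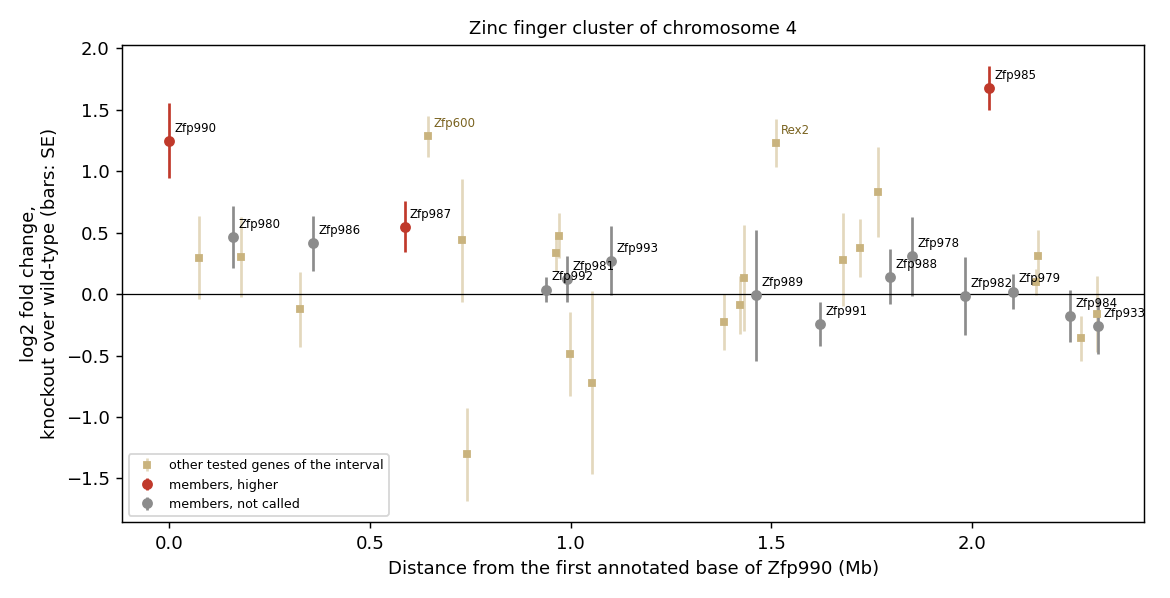
Log2 fold change (vertical axis, bars are SE) of tested genes along the chromosome 4 cluster, by distance in Mb from the first base of Zfp990. Members called higher (Zfp990, Zfp987 and Zfp985, red) stand among members that were not called (grey), and the non-member zinc finger genes Zfp600 and Rex2 stand at 1.28 and 1.23.

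Knockout replicate 3 stood apart in this cluster, and not only here. The summed level of the 16 members was 70.4, 70.5 and 104 CPM in knockout replicates 1 to 3 and 65.4, 69.4 and 62.7 CPM in wild-type replicates 1 to 3. Knockout replicate 3 was the highest of the 6 libraries for 11 of the 16 members. Zfp989 showed it most, with 2.28, 2.11 and 6.99 CPM against 2.58, 4.25 and 3.16 CPM, and its SE of 0.536 was the largest among tested members. Wild-type replicate 2, with 7935323 gene counts against 8235299 in knockout replicate 3, summed to 69.4 CPM. Without knockout replicate 3, Zfp985 moved by a log2 fold change of 1.56 (adjusted p in edgeR = 5.2e-08), Zfp980 had 0.22 and Zfp986 moved from 0.41 to 0.22. Over all 49 tested members, knockout replicate 3 was the highest library for 21. How often it was highest among all tested genes was not counted, so these counts do not set the members apart from other genes. The chromosome 2 cluster also summed highest there, at 3.30, 3.58 and 6.87 CPM in knockout replicates 1 to 3. Its wild-type sums were 4.96, 4.50 and 4.77 CPM. The chromosome 7, 8 and 17 clusters did not sum highest in knockout replicate 3.

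Members with like promoter windows had log2 fold changes from -0.18 to 0.55, apart from Zfp985 at 1.68. Where a member had several windows, the window most like those of the other members was kept, which favours likeness. Members were grouped if identical to any other at 70% or more. Of the 10 cluster members with a window, 8 (Zfp979, Zfp980, Zfp981, Zfp982, Zfp984, Zfp985, Zfp987 and Zfp988) were 70% to 91.3% identical in all 28 pairs, with a median of 83%. Zfp985 was 86.7% identical to Zfp979 and 89.3% identical to Zfp987, whose log2 fold changes were 0.02 and 0.55 beside its own 1.68. In the printed windows of Zfp985, Zfp979 and Zfp980 the ATTGG letters are followed by the same gcgggtcca, and the window of Zfp987 has gcgtgtcca there. Zfp993 and Zfp933 had unlike windows, at most 58.7% and 60.0% identical to any other of the 10. The difference between Zfp985 and its neighbours was not tested as such.

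**Figure D4:**
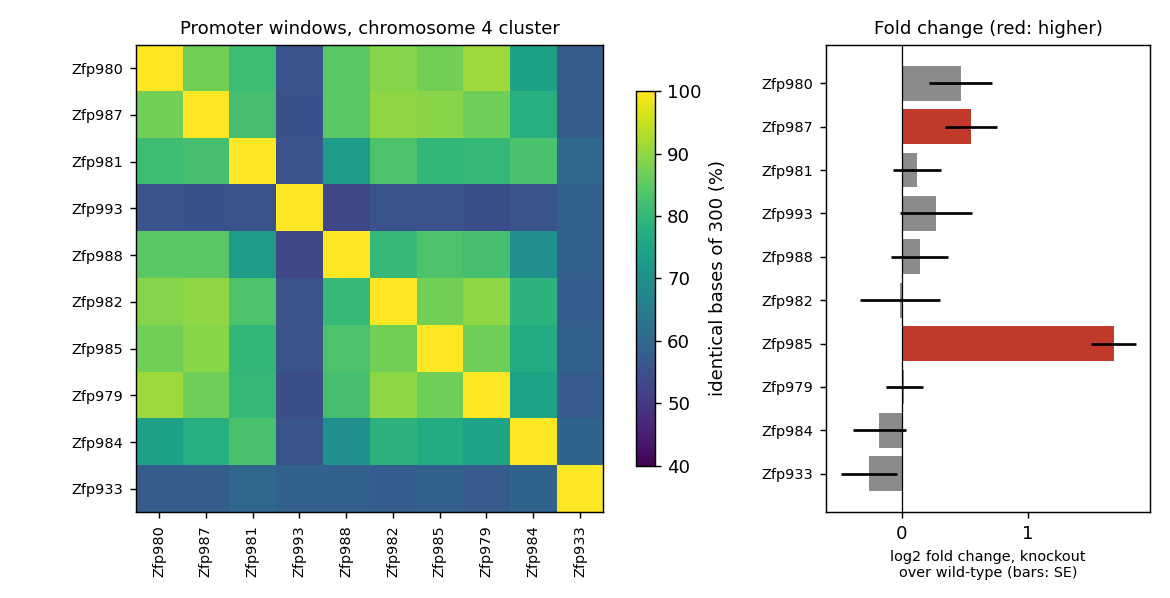
Left, percent of 300 promoter bases identical in a global alignment for each pair of 10 chromosome 4 members, in map order. Right, the same members' log2 fold changes with SE. The 8 members with like windows range from -0.18 (Zfp984) to 1.68 (Zfp985), with Zfp987 next highest at 0.55.

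Other genes within the clusters gave a mixed picture. In the chromosome 4 interval, 21 further genes were tested, 3 were higher and 1 lower. Zfp600 and Rex2, KRAB zinc finger genes of the same cluster, rose by 1.28 and 1.23 on the log2 scale (edgeR adjusted p = 3e-06 and 3.8e-05), and each shares over 50% of the 50-base stretches of Zfp980 (56.6% and 58.6%). In the chromosome 17 interval, 8 of 10 members were tested, with 2 lower (0 with GC trends removed) and a median log2 fold change of -0.13, while 1 of 5 other tested genes there, Zfp229, rose by 1.83 (edgeR adjusted p = 9e-10). In the chromosome 7 interval, 0 of 2 other tested genes were called. Zfp600 and Rex2 belong to a list given further on, and Zfp229 was named after its value was seen.

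The chromosome 2 cluster was low throughout. Only 3 of its 10 members were tested and none of those was called by edgeR with all 6 libraries: Zfp970 had 1.62, 1.25 and 3.92 CPM in knockout and 3.08, 1.88 and 2.58 CPM in wild-type lines. Without knockout replicate 3, Zfp970 was called lower. Its log2 fold change ran from -0.91 to -0.09 over the alternatives. Zfp965, Zfp967 and Zfp969 had 0 counts in every library, and 3.66%, 0% and 0% of their 50-base stretches were unique. Zfp967 and Zfp969 are contained in Zfp968 at this length (100% of stretches), so a count of 0 says only that no read was assigned to them. Zfp968, with 4.53% unique stretches, had 0 counts over the knockout libraries and 10 over the wild-type libraries, at least 3.89-fold lower against a floor of 3 counts over the knockout group. Zfp971 had 29 counts against 8, a ratio scaled for depth of 3.11 (exact 95% interval 1.39 to 7.87), and Zfp966 had 11 against 2, a ratio of 4.72 (1.03 to 43.8). With no filter on low counts, Zfp968 and Zfp971 were called (edgeR adjusted p = 0.0026 and 0.021). These intervals cover counting error only.

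The other untested members were as low. Zfp947 had 41 counts over knockout and 18 over wild-type libraries, at a ratio of 1.95 (1.1 to 3.61), and Zfp936 had 39 against 21, a ratio of 1.59 (0.914 to 2.85). Zfp953 had 27 against 25, and Zfp934, Zfp964 and Zfp983 had 4 to 7 counts over knockout and 3 to 6 over wild-type libraries. Zfp957 and Zfp973 were at or under 3 counts in both genotypes.

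The 5 members highest by mean CPM were Zfp992, Zfp941, Zfp940, Zfp954 and Zfp961, and none was called. Zfp992 was called with GC trends removed, as given above, Zfp961 was called higher with GC trends removed together with the replicate block (0.37, edgeR adjusted p = 0.0079), and Zfp940 was called lower without knockout replicate 3 (-0.29, edgeR adjusted p = 0.048). Zfp941 had 13.0, 13.2 and 15.2 CPM in knockout and 14.5, 12.4 and 14.2 CPM in wild-type lines, with a log2 fold change of -0.04 (SE 0.101, edgeR adjusted p = 0.8). Zfp954 had 8.98, 9.08 and 9.44 CPM against 9.31, 8.51 and 7.93 CPM, with a log2 fold change of 0.08 (SE 0.114). Zfp940 and Zfp961 had log2 fold changes of -0.15 (SE 0.138) and 0.16 (SE 0.154), both with their highest level in knockout replicate 3, at 11.2 and 11.9 CPM. Per kilobase of exon, the order from the top was Zfp992 at 5.32, Zfp954 at 3.71, Zfp941 at 2.92, Zfp956 at 2.48 and Zfp986 at 2.41 CPM per kilobase.

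Of the remaining members that were not called, the widest log2 fold changes were 0.64 for Zfp963 and 0.62 for Zfp931 upward and -0.52 for Zfp972 and -0.51 for Zfp970 downward, with SE from 0.301 to 0.456. Zfp982, which published work ties to the pluripotent state, had 0.913, 0.715 and 1.35 CPM against 0.779, 0.751 and 1.16 CPM and a log2 fold change of -0.01 (SE 0.320). Zfp963 was called higher with GC trends removed (0.82, edgeR adjusted p = 0.041) and without knockout replicate 3 (0.77, edgeR adjusted p = 0.046).

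Members differ in how much of their sequence is their own. Of the 19 members with under 50% unique 50-base stretches, 12 were tested, with 1 higher and none lower. Of the 21 with 50% to 90%, 18 were tested, with 3 higher and 1 lower, and of the 23 with 90% or more, 19 were tested, with 2 higher and 4 lower. Across the 49 tested members, log2 fold change had a Spearman's rho of -0.24 with uniqueness, -0.23 with GC content and -0.15 with the number of fingers. Members share libraries and clusters, so these are descriptions. Overlapping genes add to the uncertainty: the long noncoding gene Gm26573 spans Zfp992, Zfp981, Zfp993 and Zfp989 on the other strand, and without a stated strand setting in the counting, reads of such pairs cannot be told apart.

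**Figure D5:**
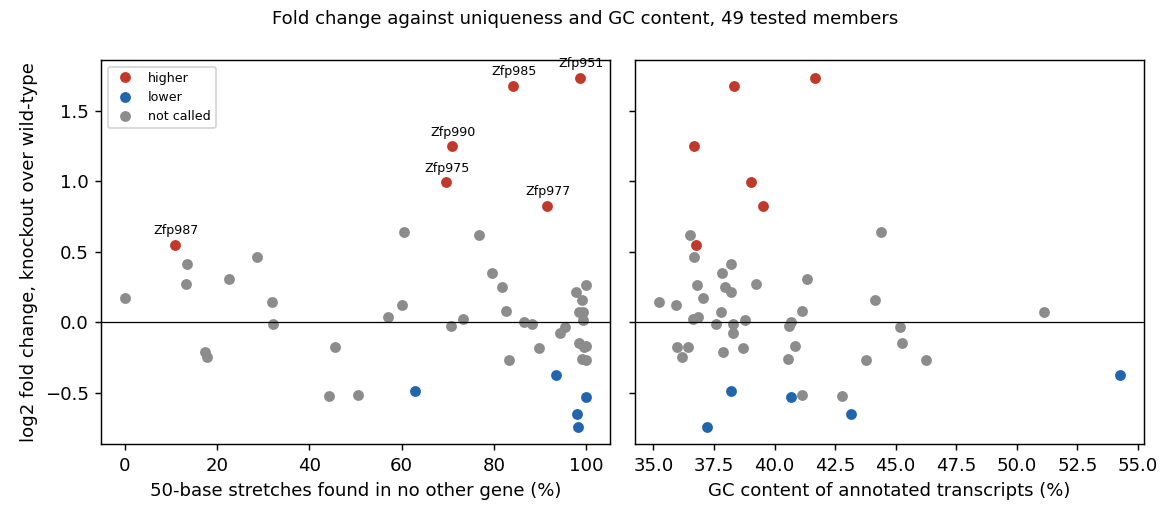
Log2 fold change of the 49 tested members against the percentage of their 50-base stretches found in no other gene (left) and against transcript GC content (right), coloured by call. The risers Zfp951, Zfp985, Zfp990, Zfp975 and Zfp977 have 69.6% to 98.6% unique stretches, and Zfp987 has 11%.

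The missing microRNA pairs with its targets through bases 2 to 8, in capitals in its mature sequence, whose match in a target is CACTGCC. The longest annotated 3′ untranslated regions were searched for this match, shown in capitals within 29 bases.
mmu-miR-34a-5p: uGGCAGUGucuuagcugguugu
Zfp932: gtctgcttggaCACTGCCattcttttcgc
Zfp940: ttcaaatccccCACTGCCtttgtggtgca
Zfp941: tgcatcacatgCACTGCCcacagaagcca
Zfp949: gctgtgtgactCACTGCCtacggccacat

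These sites lie at chr5:110010322-110010350 (+), chr7:29835425-29835453 (-), chr7:140810719-140810747 (-) and chr9:88570648-88570676 (+) on mm10. A match was present in 4 of 43 tested members with an annotated region (9.3%) and in 17.2% of 13409 tested genes, with median lengths of 1011 and 1145 bases. The untested Zfp936 and Zfp964 each had 1 as well. Of the 4 tested members with a match, Zfp932 fell, and Zfp940, Zfp941 and Zfp949 were not called, with log2 fold changes of -0.15, -0.04 and -0.26. None of the 5 risers with an annotated region (Zfp951, Zfp985, Zfp990, Zfp975 and Zfp987) held the match there, and Zfp977 had no annotated region to search. The match is a run of letters and was not tested as a site.

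Genes of the KRAB corepressor pathway were called in both directions. Of the 29 genes of the corepressor pathway, all tested, 4 rose, 13 fell and 12 were not called, with a median log2 fold change of -0.16. The shares called higher and lower were 13.8% and 44.8%, against 26.5% and 24% of all tested genes. Their median absolute log2 fold change was 0.17, against 0.27 over all tested genes. Trim28, the corepressor that KRAB boxes bind, was at 3071 ± 129.9 CPM in knockout and 2787 ± 84.3 CPM in wild-type lines and rose by 0.14 on the log2 scale (edgeR adjusted p = 0.045), and Setdb1 moved by a log2 fold change of -0.15 (adjusted p in edgeR = 0.018). Both calls were weak: that of Trim28 was lost with either other scaling (edgeR adjusted p = 0.054 and 0.059), with GC trends removed (0.42) and without any of 5 of the 6 libraries in turn (0.052 to 0.2; it held without knockout replicate 3), and that of Setdb1 was lost with GC trends removed (0.078) and without knockout replicate 2 or wild-type replicate 1 (0.061 and 0.091). The HP1 gene Cbx1 moved by a log2 fold change of -0.51 (adjusted p in edgeR = 2.2e-07), and Pphln1, of the HUSH silencing complex, had -0.60 (edgeR adjusted p = 8.3e-07). Suv39h1, an H3K9 methyltransferase gene, rose by 1.37 on the log2 scale (edgeR adjusted p = 3.8e-12). Of 17 KRAB zinc finger genes of described function outside the range, 14 were tested, 7 rose (50%) and 2 fell (14.3%), with a median log2 fold change of 0.38. Zfp57, which guards imprinted methylation, rose from 269.6 ± 12.5 to 531.8 ± 18.8 CPM (0.98 on the log2 scale, adjusted p in edgeR = 2.6e-11), and Zfp30 rose by 1.15.

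The lines differed in other marker genes too, whose part in the members' changes was not tested. In bulk RNA, fewer cells of a type and less RNA per cell cannot be told apart. The 12 pluripotency markers summed to 9065 to 9426 CPM in knockout and 7601 to 7701 CPM in wild-type lines, with 8 higher (66.7%) and 2 lower (16.7%) and none at 0. Over all tested genes, these shares were 26.5% and 24%. Pou5f1 (Oct4), Sox2 and Klf4, also carried as retroviral transgenes, were among those higher. Reads of transgene and endogenous gene were not told apart. The 27 fibroblast and feeder markers summed to 3160 to 3504 and 3577 to 4007 CPM, with 3 higher (11.5%) and 16 lower (61.5%) of 26 tested. Fn1 was the largest part of these sums, at 2017 CPM in knockout and 2137 CPM in wild-type lines, and was not called. Lum had 0 counts in the knockout. The 15 matched 2-cell stage markers, genes of the early embryo that a minority of pluripotent cells can express, were all higher and summed to 337.7 to 344.1 against 73.5 to 82.3 CPM. Calcoco2 was the largest part of the 2-cell sums, at 135.6 CPM in knockout and 61.1 CPM in wild-type lines. Zscan4f varied widely among knockout lines (23.0 ± 8.74 CPM). Whether 2-cell genes vary along with the chromosome 4 members was not tested.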

How the data were processed

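The deposited table holds raw counts per gene, made by the authors with TopHat2 2.0.11 and featureCounts 1.4.5 on mm10, per the submitters' processing notes. Libraries were strand-specific per the labels' protocols, while the strand and multi-mapping settings of the counting were not given in the sources used here, which bears on near-identical zinc finger genes. Of 42290 rows, 902 are repeat families and were kept out of library sizes and tests (5.40% to 6.16% of counts). A second table, whose 6 columns match no sample label, was not used.

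Counts were fitted with edgeR 4.0.16 in R 4.3.3 (filterByExpr, TMM scaling, robust quasi-likelihood test, no block), with Benjamini-Hochberg adjustment over all 14717 tested genes. The script was tested on simulated data. Alternatives were DESeq2 1.42.0, limma 3.58.1 voom, other scalings and count filters, a replicate block, non-robust dispersion, library GC trends removed as offsets (loess span 0.5), and each library left out in turn. Symbols and gene models came from GENCODE M21, which named 40340 of 41388 gene rows. Uniqueness is the share of a gene's 50-base transcript stretches found in no other annotated gene. Promoters and the microRNA came from RefSeq. Intervals on count ratios are exact (Clopper-Pearson, 95%).

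Named genes were called members with groups that did not overlap and a mean of at least 1 CPM (up to 10 each way). The 5 most abundant members and the other members, by value or count, were named too. From each KRAB list, up to 3 genes with the smallest p were named, beside Trim28 and Setdb1. Zfp932, Zfp976, Zfp979, Zfp980, Zfp982, Zfp970, Zfp989 and genes sharing sequence or a cluster with members were given values after those were seen. Marker genes were not named by smallest p. Pou5f1, Sox2, Klf4, Fn1, Lum, Calcoco2 and Zscan4f were named after their values were seen. The members and lists were chosen with earlier results of these data known. Every pair of libraries differed by more than sampling noise (chi-square per degree of freedom 2.25 or more), and p-values measure the spread between 3 lines per genotype.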

Additional observations from a re-analysis of the deposited data

How the results depend on the processing

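Against 6 members higher and 5 lower, DESeq2 called 1 lower (2.04%, against 19.9% of all genes), removal of GC trends gave 15 higher and 1 lower (30.6% and 2.04%, against 27.1% and 20.3%), and GC trends removed together with the replicate block gave 14 higher and 2 lower (28.6% and 4.08%, against 29.2% and 22.6%). The median log2 fold change of the members, 0.02, became 0.33 with GC trends removed and 0.33 (0.328) with the block added; that of all tested genes was 0.03. Leaving out 1 library at a time gave 5 to 7 members higher and 2 to 6 lower. The number lower was 3 without knockout replicate 1, wild-type replicate 1 or wild-type replicate 3, and 2 without knockout replicate 2. Of all genes tested in those fits, 22.3% to 27.2% were called higher and 19.4% to 25.2% lower. The cause of these differences between fits was not tested. Members' counts of calls under the other scalings, limma voom, other filters and non-robust dispersion stayed within 1.5 times, and no call of a member changed sign in any alternative run.

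Calls of the fallers were lost as follows besides DESeq2 and GC removal: Zfp946 without knockout replicate 1 or 3 or wild-type replicate 2 or 3 (edgeR adjusted p 0.061 to 0.16), Zfp948 without knockout replicate 1 or wild-type replicate 3 (0.064 and 0.13), Zfp952 without knockout replicate 2 (0.062), Zfp956 without knockout replicate 2 or wild-type replicate 1 (0.075 and 0.053), and Zfp932 without knockout replicate 2 or wild-type replicate 1 (0.1 and 0.072). Without wild-type replicate 3, Zfp932 was still called, at an edgeR adjusted p that rounds to 0.05. The replicate block called 7 members higher and 5 lower, gaining Zfp976 and Zfp986 (edgeR adjusted p 0.013 and 0.029) and losing Zfp987 (0.056). With that block, 27.6% of all tested genes were called higher and 25.7% lower. Deviations of same-numbered libraries correlated at 0.088, -0.02 and 0.11. The values 0.11 and 0.088, for replicates 3 and 1, were the highest of all pairs, though low. Knockout replicate 2 correlated best with wild-type replicate 1 (0.063). Same-numbered libraries were thus not the best match throughout, and the samples were taken to share only a number, with the block kept as an alternative. Alternatives for named genes outside the family were read out after seeing the data. Depth limits the low members: 3 counts amount to 0.368 CPM in knockout replicate 3 and 0.375 CPM in wild-type replicate 2.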

Other observations

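Some members start close to a neighbour on the other strand. Zfp942 and Zfp943 on chromosome 17 lie head to head, with their starts 88 bases apart and no overlap. Their log2 fold changes were -0.08 (SE 0.175) and 0.22 (SE 0.287), neither called. The lincRNA Gm13166, inside the chromosome 4 cluster, was lower in the knockout with a log2 fold change of -1.31 (SE 0.375, edgeR adjusted p = 0.0082), although the libraries of the genotypes overlapped; it was named after its value was seen.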
